A study of Mus musculus with 8 samples.

Results

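The 10 genes described here are 6 short non-coding RNAs of the mouse that RNA polymerase III makes and 4 genes for proteins that work with them. The RNAs are 7SK (Rn7sk), the 7SL copies Rn7s1 and Rn7s2, the Y RNAs Rny1 and Rny3, and the vault RNA Vaultrc5. The proteins are Larp7 and Hexim1 for 7SK, Srp54a for 7SL and Mvp for the vault. They were taken by name from the 55487 genes of the count table, by a rule that uses no measured value but was written with earlier results of these data known, and all 10 were found. Germ cells had been purified by fluorescence-activated cell sorting (FACS) from testes of fetal C57BL/6 mice, and their total RNA was sequenced. The group labelled KO was Rhox10-null and Oct4-eGFP+/+, that is, null for an X-linked homeobox gene of the reproductive Rhox cluster. The group labelled WT was made of littermates that were also Oct4-eGFP+/+, so the reporter, a green fluorescent protein under sequences of Oct4 (Pou5f1) that marks germ cells, was on both sides of the comparison. There were 4 libraries per group. Neither the fetal age nor whether each library came from its own animal is given, and p-values therefore cover only the spread between these samples, which may be technical.

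7SK is the scaffold of a nuclear particle that holds the kinase P-TEFb (Cdk9 with a cyclin T) inactive: Larp7 and Mepce stabilise the RNA, and Hexim1 or Hexim2, bound to it, inhibits the kinase. P-TEFb set free from the particle releases paused RNA polymerase II into elongation. 7SL is the RNA of the signal recognition particle (SRP), whose Srp54 subunit binds signal peptides and takes ribosomes to the endoplasmic reticulum. Y RNAs are bound by the Ro protein (Trove2) and by La (Ssb), and vault RNAs lie in the vault, a large particle with a shell of major vault protein (Mvp).

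The sequences are those of the annotated transcripts (GENCODE M21, build GRCm38), written 5′ to 3′ on the strand of the RNA with T for U. The Y RNAs are shown for the ends they share. Rny1 lies at chr6:47788069-47788180 on the minus strand and Rny3 at chr6:47781624-47781725 on the plus strand. Capitals mark the longest run of letters common to both within the first 25 and within the last 25 bases, 8 bases at each end. In the folded RNA these ends pair into the stem that Ro binds.
Rny1: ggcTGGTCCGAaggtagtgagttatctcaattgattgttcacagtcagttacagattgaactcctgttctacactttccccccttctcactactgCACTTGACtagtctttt
Rny3: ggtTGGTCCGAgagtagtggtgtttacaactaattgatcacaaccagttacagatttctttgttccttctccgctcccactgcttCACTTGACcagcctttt

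The first 100 of the 331 bases of Rn7sk are shown because this end of 7SK is the one that Hexim1 binds. Hexim1 binds there at GATC repeats (GAUC in the RNA) of a hairpin. Capitals mark each GATC by its letters alone, and which of them lie in that hairpin was not tested. The stretch shown lies at chr9:78175534-78175633 on the minus strand, in a gene that spans chr9:78175303-78175633 and overlaps no other annotated gene.
Rn7sk 5′ part: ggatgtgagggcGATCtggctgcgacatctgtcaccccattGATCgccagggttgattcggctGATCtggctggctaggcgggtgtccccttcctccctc
GATC, which reads the same on both strands, occurs 3 times in this stretch, at positions 13, 42 and 64 from the first base, and nowhere else in the RNA. Of 139316 annotated transcripts of at least 100 bases, 450 (0.323%) held GATC 3 or more times in their first 100 bases.

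Rn7s1 and Rn7s2 both lie on chromosome 12, and 0 of their 300 bases differ, which decides how their counts can be read. The B1 repeats found in many mouse transcripts descend from 7SL.

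The libraries held 16346977 to 20311338 counts. Levels are given as CPM, counts scaled to the library size with edgeR's TMM factors (a trimmed mean of gene ratios), and fold changes are KO over WT on the log2 scale. A gene was called at an adjusted p under 0.05 in edgeR's quasi-likelihood test with Benjamini-Hochberg adjustment over all 23190 genes tested. Of these 1193 (5.14%) were called, 544 (2.35%) higher and 649 (2.80%) lower with the KO label, and in 2188 (9.44%) the groups did not overlap. Scaling by library totals alone gave 426 higher and 836 lower, and upper-quartile scaling gave 633 higher and 555 lower. The balance of directions thus depended on the scaling. Rhox10 itself was counted in all libraries, 17 to 25 times with the WT label and 10 to 22 times with the KO label, so the directions below are between libraries as labelled. Mitochondrial genes took 15.31 to 15.70% of the counts with the WT label and 15.72 to 16.79% with the KO label. Markers of germ cells summed to 134 to 149 CPM with the WT label and 136 to 146 with the KO label over 9 genes (2 called higher and 1 lower of 8 tested). Markers of Leydig cells, the steroid-producing cells between the tubules, had a far higher sum. Per kilobase, the germ cell gene Ddx4 had 14.8 and 14.4 CPM in the groups. Cyp17a1, an enzyme of androgen synthesis and the most abundant of the 5 Leydig markers, had 474 and 430. Insl3, the lowest of the 5 per kilobase, had 16.8 and 17.2, near Ddx4, and was not called (0.04). The 5 Leydig markers summed to 2804 to 2835 CPM with the WT label and 2545 to 2584 with the KO label (4 of 5 called lower). The 8 erythroid markers summed to 220 to 235 CPM with the WT label and 91.7 to 96.7 with the KO label (4 of 7 tested called lower), and the 8 markers of tubular and duct epithelium to 37.1 to 40.1 and 76.7 to 87.8 (8 of 8 called higher). Sertoli markers summed to 649 to 675 and 630 to 651 CPM (2 of 7 called lower), endothelial markers to 159 to 174 and 179 to 188 (2 of 5 called higher), and macrophage and leukocyte markers to 22.0 to 22.7 and 17.0 to 19.7 (0 of 4 tested called). None of these markers was at 0 in all libraries. In such bulk samples, fewer cells of a type and less RNA per cell cannot be told apart. The part of such cells in the results was not tested. As a measurement beside the results, each change was refitted with the mean level of the somatic and blood markers as a covariate. This alternative was chosen after seeing the data. The lists of such markers moved in different directions, so their mean need not follow the share of any single cell type.

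Of the 10 genes 9 passed the filter on low counts and were tested, and 5 of the 9 were called, against 5.14% of all genes. Rn7s1 and Rn7s2 stand for 1 measurement among the 9. Rn7sk and Rny3 rose and Hexim1, Larp7 and Srp54a fell. No overlap between the labels was seen for 3 of the 9, Rn7sk, Hexim1 and Srp54a, against 9.44% of all genes.

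**Figure D1:**
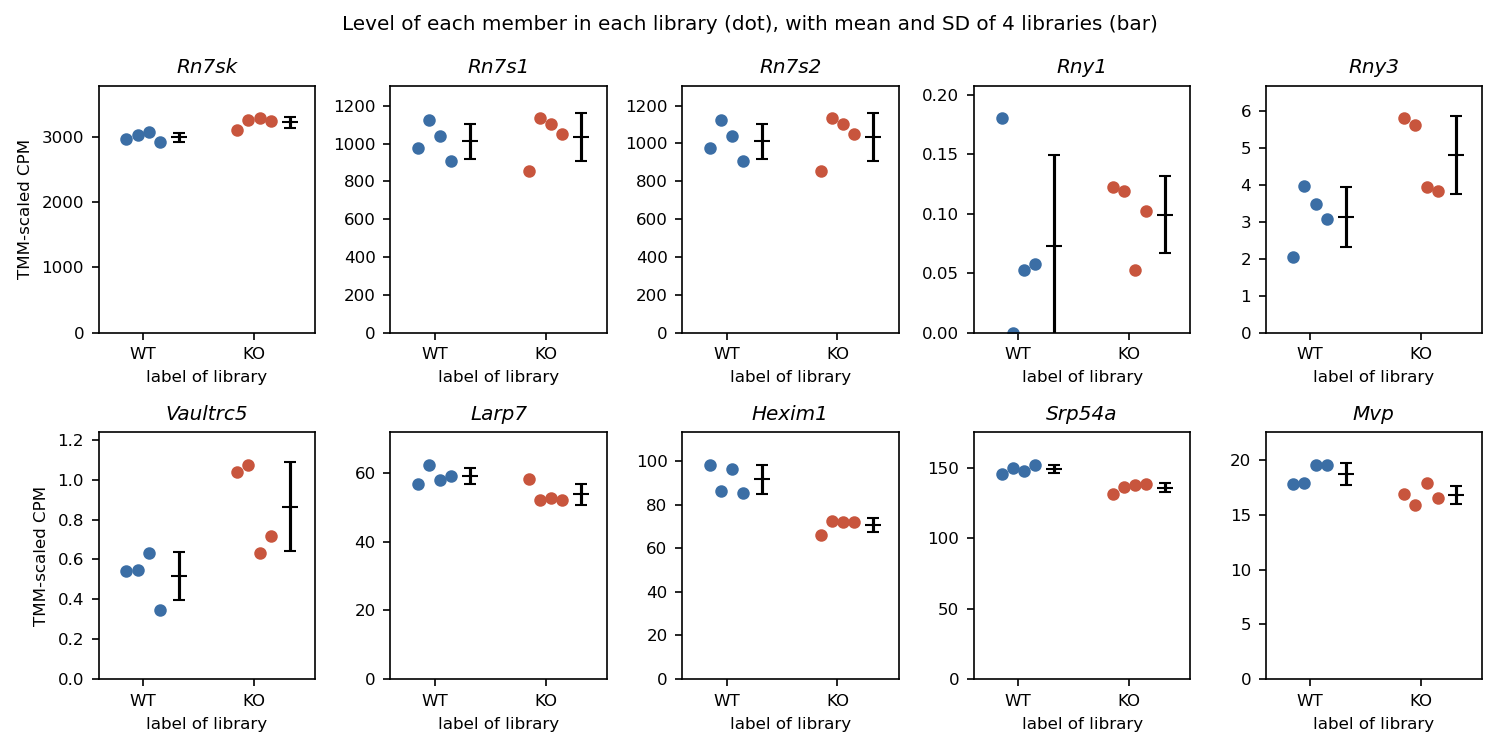
TMM-scaled CPM of each of the 10 genes in each library (dots, replicates 1 to 4 from left to right) by label, with the mean and SD of 4 libraries (black bars, cut at 0). All 4 Rn7sk dots with the KO label lie above those with the WT label, all 4 Hexim1 and Srp54a dots lie below, and the Rn7s1 and Rn7s2 panels cannot be told apart.

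In the 7SK particle, the RNA and the messages of 2 proteins differed in opposite directions. Rn7sk rose slightly with the KO label while the messages of its partners Hexim1, the inhibitor of P-TEFb, and Larp7, the protein that protects the 3′ end of 7SK, fell. Rn7sk (ENSMUSG00000065037) had 2974, 3035, 3078 and 2919 CPM in WT replicates 1 to 4 and 3105, 3269, 3292 and 3243 CPM in KO replicates 1 to 4. Each library labelled KO was above each library labelled WT, with KO replicate 1 the lowest of its group. The means were 3002 ± 69.8 and 3227 ± 84.2 CPM (SD, n = 4), a fold of 1.08 or a log2 fold change of 0.10 (standard error 0.016, 95% interval 0.07 to 0.14, edgeR adjusted p = 7.18e-08). The difference exceeded the spread between replicates, and in 21 alternative settings the log2 fold change stayed between 0.09 and 0.12 with the call kept in each. It was 0.10 with the marker covariate.

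Hexim1 (ENSMUSG00000048878, chr11:103116231-103119725, plus strand) had the largest change of the 4 protein partners. Its levels were 98.3, 86.1, 96.2 and 85.4 CPM in the WT libraries and 65.9, 72.7, 71.8 and 72.0 CPM in the KO libraries. The lowest WT value lay above the highest KO value, and WT replicates 1 and 3 were the high ones of their group. Mean levels were 91.5 ± 6.68 and 70.6 ± 3.17 CPM (SD, n = 4), 0.773 of the WT level (log2 fold change -0.37, standard error 0.039, 95% interval -0.45 to -0.30, edgeR adjusted p = 1.18e-15). Hexim1 was called in all 21 alternatives, at -0.40 to -0.34, and the marker covariate gave -0.38.

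Larp7 (ENSMUSG00000027968, chr3:127536714-127553349, minus strand) fell by 0.14 on the log2 scale, and this call was a weak one. It had 56.7, 62.3, 58.0 and 58.9 CPM with the WT label and 58.1, 51.9, 52.8 and 52.0 CPM with the KO label. The groups overlapped through KO replicate 1, which lay above WT replicates 1 and 3, while the other 3 KO libraries were below all WT libraries. The means, 59.0 ± 2.42 and 53.7 ± 2.99 CPM (SD, n = 4), gave a standard error of 0.045 on the log2 scale, a 95% interval of -0.23 to -0.05 and an edgeR adjusted p of 0.0467. The call was lost in 13 of the 21 alternatives, with adjusted p-values over all of them of 0.00954 to 0.233. It was lost without WT replicate 2 (adjusted p = 0.233), 3 (0.0628) or 4 (0.0782), without KO replicate 2 (0.164), 3 (0.135) or 4 (0.164), with DESeq2 (0.119), and with the marker covariate (-0.13, 0.0885). The gene holds the miRNA genes Mir302a to Mir302d and Mir367 on the opposite strand, and whether the counting used strand is not given in the sources used here.

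The count of a protein's message per count of the RNA it binds needs no scaling between libraries. Per 1000 Rn7sk counts there were 33.0, 28.4, 31.2 and 29.3 Hexim1 counts in the WT libraries and 21.2, 22.2, 21.8 and 22.2 in the KO libraries. The groups did not overlap, and the KO libraries lay closer together (21.9 ± 0.471 against 30.5 ± 2.09; SD, n = 4). Larp7 counts per 1000 Rn7sk counts were 18.8 to 20.5 (19.7 ± 0.834) with the WT label and 15.9 to 18.7 (16.7 ± 1.38) with the KO label, again with no overlap but with the highest KO value, in replicate 1, close to the lowest WT value. These ratios combine genes already tested and carry no test of their own.

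**Figure D2:**
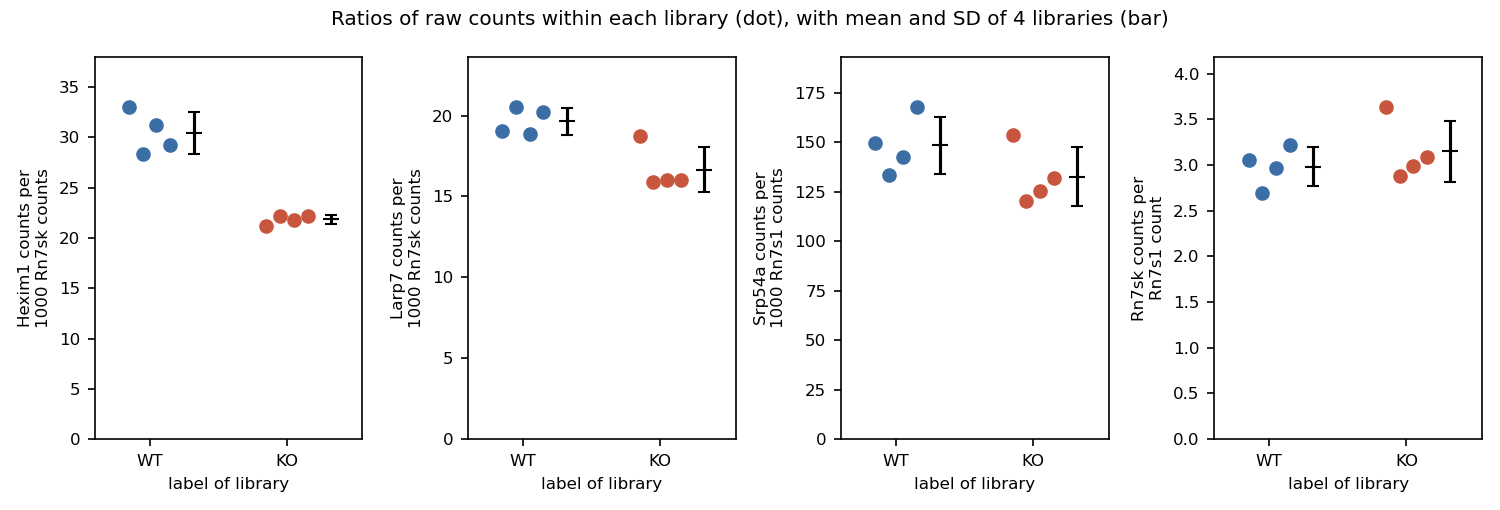
Ratios of raw counts in each library (dots) by label, with mean and SD of 4 libraries (black bars): Hexim1 and Larp7 per 1000 Rn7sk counts, Srp54a per 1000 Rn7s1 counts and Rn7sk per Rn7s1 count. The first 2 ratios do not overlap between labels (28.4 to 33.0 against 21.2 to 22.2 for Hexim1), the last 2 do.

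Other proteins of the 7SK particle and P-TEFb were not called. Of 7 genes in that list, 0 were higher and 2 lower, Hexim1 and Larp7, and the median log2 fold change of the 7 was 0.01, against 0.00198 over all genes. Mepce, which caps 7SK, had 23.0 ± 1.12 and 22.0 ± 1.72 CPM (SD, n = 4; -0.06, adjusted p = 0.761). Hexim2, the relative of Hexim1, had 3.09 ± 0.425 and 3.50 ± 0.661 CPM (0.19, adjusted p = 0.687). The kinase gene Cdk9 and the cyclin genes Ccnt1 and Ccnt2 had log2 fold changes of 0.04, 0.05 and 0.01. Among 14 tested factors of polymerase pausing and elongation that P-TEFb acts on or with, 0 were higher and 1 lower, with a median of -0.04. The 1 was Nelfcd, a subunit of the pausing complex NELF, with 31.2 ± 0.979 and 27.0 ± 0.612 CPM (SD, n = 4; -0.21, adjusted p = 0.0189). This call was lost when WT replicate 1 (0.0659) or KO replicate 2 (0.0632) was left out.

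7SL did not differ between the labels beyond the spread of its replicates. Rn7s1 (ENSMUSG00000099021) had 974, 1126, 1038 and 907 CPM with the WT label and 854, 1134, 1102 and 1051 CPM with the KO label. The groups overlapped over most of their range, and KO replicate 1 was the lowest of all 8 libraries. The means were 1011 ± 93.2 and 1035 ± 126 CPM (SD, n = 4), with a log2 fold change of 0.03 (standard error 0.11, 95% interval -0.23 to 0.30, edgeR adjusted p = 0.933). The interval is wide for an RNA of this level, and its sign turned without WT replicate 4 (-0.02) or KO replicate 2 (-0.01). Rn7s2 (ENSMUSG00000099250) had counts that differed from those of Rn7s1 by 0 to 12 per library, at most 0.0741% of the Rn7s1 count, so reads that match both copies were counted at both and the pair is 1 measurement. Each copy also overlaps 2 predicted miRNA genes, all 4 listed at 0.

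Srp54a (ENSMUSG00000073079, chr12:55080262-55115367, plus strand), for the signal peptide-binding subunit of SRP, fell by 0.13 on the log2 scale. It had 146, 150, 148 and 152 CPM with the WT label and 131, 136, 138 and 139 CPM with the KO label. The groups did not overlap, and the spread within each was small, at 149 ± 2.77 and 136 ± 3.42 CPM (SD, n = 4; standard error 0.030 on the log2 scale, 95% interval -0.19 to -0.07, edgeR adjusted p = 0.000856). The call was kept in all 21 alternatives, at -0.15 to -0.12 with adjusted p-values of 0.000149 to 0.0105, and the marker covariate gave -0.13. Srp54b and Srp54c, its near-identical copies (99.561% and 99.505% of aligned bases), had 96.2 to 97.6% and 90.3 to 93.2% of the Srp54a count in each library and the same log2 fold change of -0.13. Reads may be shared between the copies, so the fall of the 3 rows is taken as 1 observation. Srp54a counts per 1000 Rn7s1 counts were 134 to 168 with the WT label and 120 to 154 with the KO label, and overlapped.

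None of the other SRP genes was called. Of 10 tested genes for its proteins and receptor, 0 were higher and 3 lower, the 3 Srp54 copies. With Srp54a alone standing for the copies, 7 of 8 had a log2 fold change below 0, with a median of -0.06, against 50.7% of all genes above 0. Srp14 and Srp19 had log2 fold changes of -0.08 and -0.09 (adjusted p = 0.533 and 0.612), Srp68 and Srp72 of -0.00058 and -0.04, and Srprb, the membrane anchor of the receptor, of -0.16 (adjusted p = 0.234). In the translocon, the channel to which SRP delivers ribosomes, edgeR called 0 of 12 genes and 1 had an unadjusted p under 0.05 (median -0.03). Its most abundant genes were Ssr1, with 153 ± 5.89 and 150 ± 1.33 CPM, and Sec63, with 130.1 ± 3.56 and 127 ± 3.90 CPM (SD, n = 4).

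**Figure D3:**
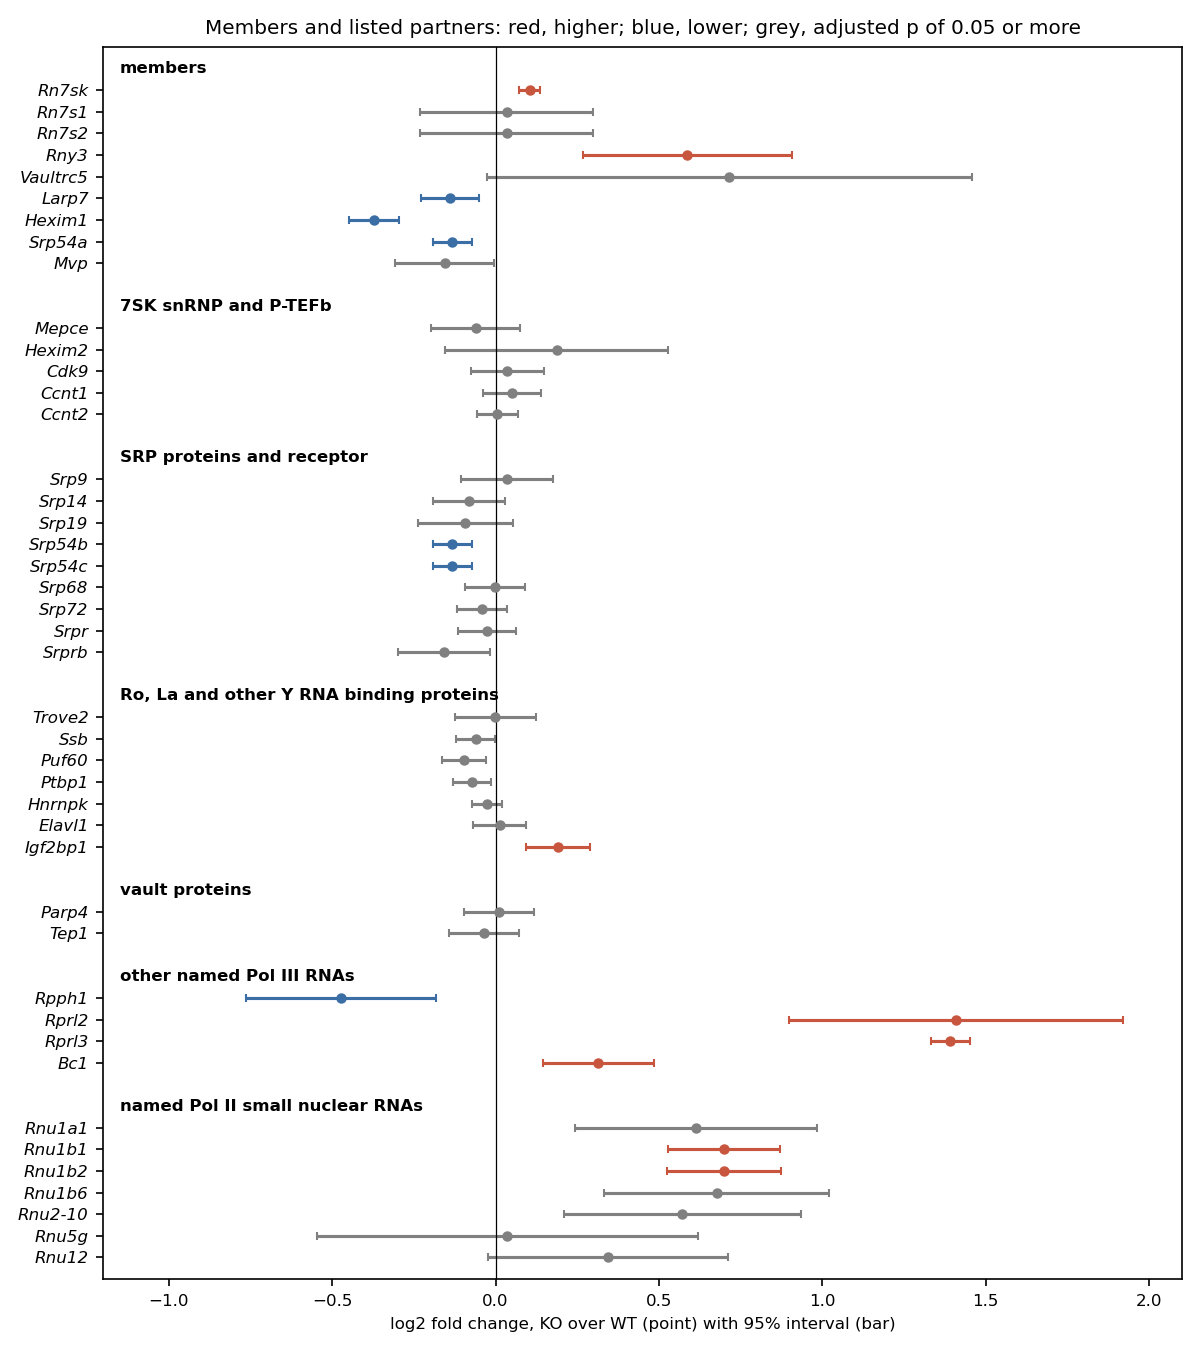
Log2 fold change, KO over WT (points), with its 95% interval (bars) for the 9 tested genes and for tested genes of 6 lists, from the edgeR fit; red and blue mark genes called higher and lower, grey those not called. Rn7sk at 0.10 and Hexim1 at -0.37 have the narrowest and the most distant intervals among the 7SK genes, while the interval of Rn7s1 runs from -0.23 to 0.30.

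Of the Y RNAs, Rny3 rose with the KO label and Rny1 was too rare to test. Rny3 (ENSMUSG00000064945) had 34, 80, 66 and 53 counts with the WT label and 95, 94, 75 and 75 with the KO label, or 2.05, 3.96, 3.47 and 3.07 against 5.81, 5.62, 3.94 and 3.84 CPM. KO replicates 1 and 2 were high and WT replicate 1 low, and KO replicates 3 and 4 lay just under WT replicate 2. Means of 3.14 ± 0.815 and 4.80 ± 1.06 CPM (SD, n = 4) gave a fold of 1.50 (log2 fold change 0.59, standard error 0.16, 95% interval 0.27 to 0.91, edgeR adjusted p = 0.0119). The call rested on single libraries and on the test. It was lost without WT replicate 1 (0.44, adjusted p = 0.142), KO replicate 1 (0.48, 0.0926) or KO replicate 2 (0.50, 0.0968), with DESeq2 (0.60, 0.0750) and with limma voom (0.58, 0.0980), in a range over the 21 alternatives of 0.00456 to 0.142. The marker covariate gave 0.65 (0.00529).

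Rny1 (ENSMUSG00000065701) had 3, 0, 1 and 1 counts in the WT libraries and 2, 2, 1 and 2 in the KO libraries, 5 and 7 in all. The 0 of WT replicate 2 allows up to 0.149 CPM, the level of 3 counts, which covers counting error only. With the filter on low counts removed its log2 fold change was 0.46 with a 95% interval of -1.68 to 2.59 (adjusted p = 0.911), so no difference was detectable at this depth. Among 7 tested proteins that bind Y RNAs, 1 was higher and 0 lower, with a median of -0.03. The 1 was Igf2bp1, an RNA-binding protein of fetal tissues, with 41.5 ± 2.14 and 47.4 ± 1.44 CPM (SD, n = 4; 0.19, adjusted p = 0.00611), and leaving out WT replicate 4 ended the call (0.0670). Trove2, the Ro protein, had 26.5 ± 0.877 and 26.4 ± 1.16 CPM (-0.00015, adjusted p = 1.00), and Ssb, the La protein, 138 ± 5.48 and 132 ± 3.43 CPM (-0.06, adjusted p = 0.314).

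Neither gene of the vault was called. Vaultrc5 (ENSMUSG00000065145), on chromosome 18, had 9, 11, 12 and 6 counts with the WT label and 17, 18, 12 and 14 with the KO label. KO replicate 3 equalled the highest WT count, and the summed counts were 38 and 61. At 0.516 ± 0.120 and 0.866 ± 0.225 CPM (SD, n = 4), its log2 fold change was 0.72 (standard error 0.38, 95% interval -0.03 to 1.46, adjusted p = 0.347). It passed the filter through the KO libraries, of which 4 exceeded the limit of 0.554 CPM against 1 WT library. Mvp (ENSMUSG00000030681, chr7:126986860-127014621, minus strand) had 17.8, 17.9, 19.6 and 19.5 CPM with the WT label and 16.9, 15.9, 17.9 and 16.5 CPM with the KO label. Only the third KO replicate reached into the WT range, and the means were 18.7 ± 0.975 and 16.8 ± 0.843 CPM (SD, n = 4; log2 fold change -0.16, standard error 0.077, unadjusted p = 0.0441, adjusted p = 0.302). Mvp overlaps Pagr1b on the same strand, which may share its reads. The other vault proteins, Tep1 and Parp4, had log2 fold changes of -0.04 and 0.01, so edgeR called 0 of 3 vault protein genes, with an unadjusted p under 0.05 for 1, Mvp.

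The abundant rows related in sequence to 7SK rose as Rn7sk did. The mouse genome holds many annotated 7SK-like rows: 232 others matched Rn7sk in blastn, 147 of them with a count, and together they held 508338 counts against 451081 at Rn7sk. Of the 29 tested, 6 were higher, against 2.35% of all genes, and 0 lower, with a median of 0.11 and 20 of 29 above 0. Gm24447, whose best single alignment spans 72.8% of the length of Rn7sk at 100% identity, had 1180 ± 26.8 and 1292 ± 17.5 CPM (SD, n = 4; 0.13, adjusted p = 6.98e-10). Gm26315 (99.58% identity) gave 0.13 (8.44e-10) and Gm26035 (96.07%) gave 0.11 (5.50e-05). Reads may be shared between these rows and Rn7sk and among the rows themselves: Gm24447 and Gm26315 had nearly equal levels, 1180 and 1180 CPM with the WT label and 1292 and 1291 with the KO label. The 6 rows are therefore neither separate observations nor further evidence of the change of Rn7sk, and their summed counts may hold the same read more than once. None of the 232 met the rule for a near-identical copy, at least 90% identity over at least 80% of the RNA in the best single alignment. Further aligned segments of a row were not added to it.

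The relatives of 7SL stayed, like Rn7s1, within their spread. There were 19 beside Rn7s1 and Rn7s2, 16 with a count and 8 tested, of which 0 were called (median 0.07). Gm26461 had 807 ± 63.2 and 819 ± 96.6 CPM (0.02, adjusted p = 0.957), and Rn7s6 243 ± 35.2 and 255 ± 33.9 CPM (0.07, adjusted p = 0.893; SD, n = 4 for both). The rule for near-identical copies took only Gm24105 beside the 7SL pair (91.7% identity), with 3.13 ± 0.408 and 3.25 ± 0.800 CPM (0.07, adjusted p = 0.915). Gm25403, the near-identical copy of Vaultrc5 by the same rule, was listed at 0 in all libraries. Rny1 had 18 relatives, 8 with a count and 124 counts in all, and its near-identical copies Gm26168 and Gm26124 held 1 and 0 counts in all libraries. Rny3 had 1 relative, with 4 counts in all.

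**Figure D4:**
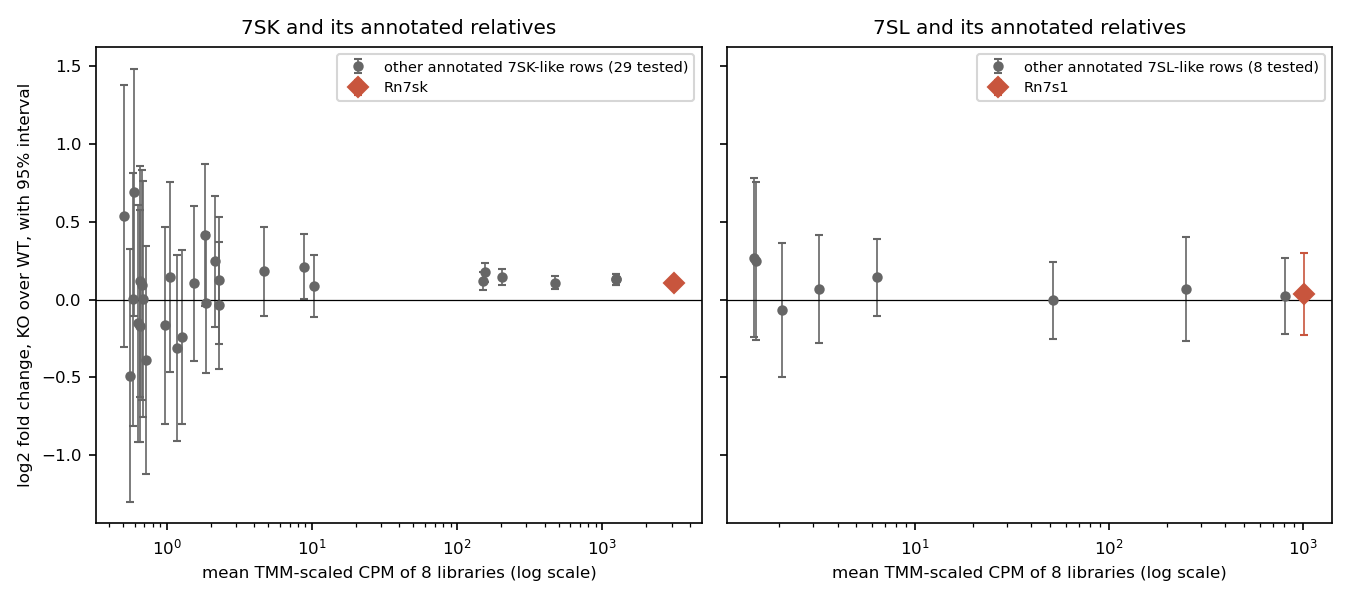
Log2 fold change, KO over WT, with its 95% interval against the mean TMM-scaled CPM of 8 libraries (log scale) for Rn7sk (left, diamond) and Rn7s1 (right, diamond) and their annotated relatives (dots, 29 and 8 tested). The 7SK-like rows above 100 CPM all lie above 0 with narrow intervals, and every 7SL interval includes 0.

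Set beside other short RNAs, the rise of Rn7sk and Rny3 was not the only one. Of the 62 tested rows of the annotated type misc_RNA, which holds all 6 RNAs, 8 were higher and 0 lower, and the 8 were Rn7sk, 6 of its relatives and Rny3. Small nuclear RNAs (snRNA) had 6 higher and 0 lower of 90 tested, with a median of 0.47, small nucleolar RNAs (snoRNA) 11 and 0 of 108, with a median of 0.11, and small Cajal body RNAs (scaRNA) 2 and 0 of 11, with a median of 0.20. Protein-coding genes had 454 higher and 528 lower of 15324. The snRNA share of all counts was 0.142 to 0.211% with the WT label and 0.241 to 0.283% with the KO label, with no overlap. The snoRNA share (0.0294 to 0.0346% and 0.0355 to 0.0385%) and the scaRNA share (0.0244 to 0.0263% and 0.0268 to 0.0287%) did not overlap either, and the part of these shifts in the rise of Rn7sk and Rny3 was not tested. Reads of similar copies may be counted at several rows of these types. The rows need not be separate observations, and the shares may hold the same read more than once. With mitochondrial and short RNA genes left out of the scaling, Rn7sk stayed at 0.11 and Rny3 at 0.59. With the shared 7SL reads taken once, at Rn7s1, the RNAs together took 0.388 to 0.414% of the counts with the WT label and 0.397 to 0.434% with the KO label, and Rn7sk alone 0.295 to 0.308% and 0.311 to 0.325%.

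**Figure D5:**
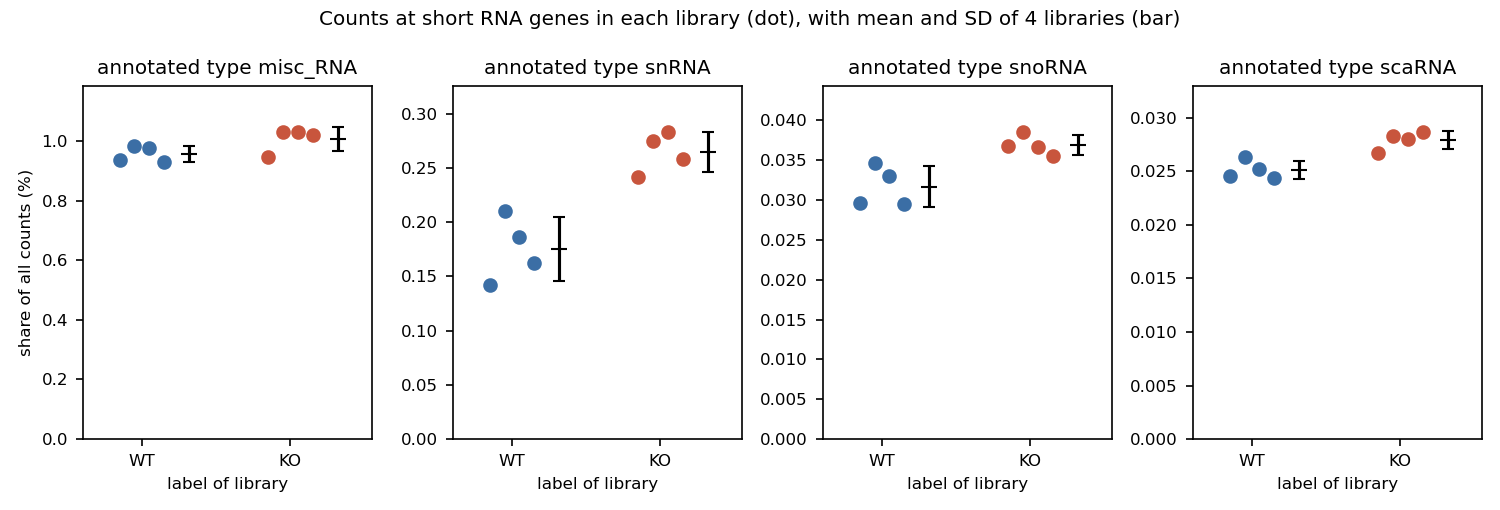
Share of all counts (%) at genes of 4 annotated short RNA types in each library (dots) by label, with mean and SD of 4 libraries (black bars). The snRNA share is 0.142 to 0.211% with the WT label and 0.241 to 0.283% with the KO label, the snoRNA and scaRNA shares also do not overlap, and the misc_RNA share, which holds 7SK and 7SL, overlaps between labels. A share may hold the same read more than once where similar copies share reads.

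Named RNAs of RNA polymerase III other than these did change, in both directions. Of 4 tested, 3 were higher and 1 lower. Rprl3, annotated as a relative of the RNA of RNase P, the enzyme that trims tRNAs, rose from 90.3 ± 1.42 to 237 ± 11.5 CPM (SD, n = 4; 1.39, adjusted p = 4.18e-134), and Rprl2 rose by 1.41 from 0.892 ± 0.238 CPM. Rprl3 and Rprl2 are both annotated at 290 bases, and whether they share reads was not tested, so they may not be separate observations. Bc1, a brain cytoplasmic RNA, rose from 12.7 ± 1.84 to 15.7 ± 0.559 CPM (0.31, adjusted p = 0.0111). Its call ended when WT replicate 3 (0.178) or KO replicate 3 (0.0574) was left out and with DESeq2 (0.0520). Rpph1, the RNase P RNA itself, fell from 5.44 ± 0.870 to 3.92 ± 0.682 CPM (-0.47, adjusted p = 0.0337). That call ended in 9 of the 21 alternatives, among them those that left out WT replicate 2 (0.171) or 3 (0.121) or KO replicate 1 (0.0972), 2 (0.154) or 4 (0.0755). Of 7 tested small nuclear RNAs made by RNA polymerase II, 2 were higher, the U1 genes Rnu1b1 and Rnu1b2, each at 30.7 and 50.1 CPM in the groups (0.70) with nearly equal counts, and DESeq2 and limma voom each called 5.

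No subunit of the enzyme that makes the 6 RNAs was called. Of 18 genes for subunits of RNA polymerase III, edgeR called 0, and 0 had an unadjusted p under 0.05 (median 0.04). The most abundant, Polr3d, had 52.1 ± 2.33 and 51.9 ± 2.11 CPM, and Polr3b 38.1 ± 1.25 and 39.2 ± 1.94 CPM (SD, n = 4). Among 19 genes for initiation factors and for the repressor Maf1, 0 were called and 2 had an unadjusted p under 0.05 (median 0.02), with Gtf3c1 at 314 ± 4.0 and 319 ± 8.22 CPM and Bdp1 at 172 ± 3.08 and 174 ± 5.06 CPM. Of 7 proteins with a La module, an RNA-binding domain, only Larp7 was called. DESeq2 and limma voom also called 0 genes in the lists of polymerase III subunits, initiation factors, translocon and vault.

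Per kilobase of annotated length, Rn7sk was the highest of the 10 genes, at 9409 CPM per kilobase averaged over the 8 libraries, and no library overlapped the next gene. Rn7s1 and Rn7s2 followed at 3411 and 3410 and overlapped each other. Rny3, at 38.9, was far below 7SL and overlapped Srp54a (26.8), which was followed by Larp7 (23.8) and Hexim1 (23.2), with neighbours overlapping. The order of the last pair differed by label: Hexim1 was above Larp7 with the WT label (26.2 ± 1.91 against 24.9 ± 1.02 CPM per kilobase; SD, n = 4) and below it with the KO label (20.2 ± 0.907 against 22.7 ± 1.26). Vaultrc5 (4.83) and Mvp (2.33) came next and overlapped, and Rny1 was last at 0.768. How well the library kit recovers RNAs of such different lengths was not tested.

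Over the 8 libraries, the genes whose centred log2 CPM lay closest to that of Rn7sk were Slc4a3, Hdac5 and Pspc1, at a root mean square difference of 0.0147, 0.0158 and 0.0198. The median over 5411 candidate genes was 0.0815, and Rn7sk itself varied by 0.0608 around its mean. For Rn7s1, the closest of 5413 were the predicted miRNA rows Gm24270, Gm24187 and Gm25911, on chromosomes 9, 13 and 1, at 0.0314, 0.0338 and 0.0348, against a median of 0.150 and its own variation of 0.140. These rows of 56 or 57 bases had 14902, 14150 and 12248 CPM with the WT label. Only rows of the type misc_RNA were screened as relatives. Whether the miRNA rows share reads with each other or with 7SL was not tested.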

How the data were processed

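Total RNA of sorted germ cells (1 ng per library) was made into stranded total RNA libraries with a SMARTer pico-input kit, per the labels' protocols. The authors deposited raw counts per gene, with no normalization, in 1 table for the 4 libraries labelled WT and the 4 labelled KO. The build GRCm38 and the tools STAR (2.5.2b), featureCounts, Subread and DESeq2 are named, without roles, in the submitters' processing notes. Their settings, such as the use of strand or of reads with several positions, are not given in the sources used here. Symbols came from GENCODE M21 (55141 of 55487 IDs), and 99.42% of the IDs it holds had identical positions.

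Counts were tested in R 4.3.3 with edgeR 4.0.16: filterByExpr, TMM scaling, robust quasi-likelihood fit, two-sided, with no other term. Intervals are at 95%. Rows similar to a member RNA were found among transcripts of the type misc_RNA with blastn 2.17.0 (e-value up to 1e-05), keeping only the best alignment of each transcript. The genes named are the 10 members, up to 4 called genes of each list by smallest p (or its 2 most abundant), the 3 most abundant copies, and the 3 genes closest to Rn7sk and to Rn7s1 in log2 CPM (prior count 2) among genes whose average log2 CPM reached 5. Other genes of the 7SK, SRP, Y RNA and marker lists named in the text were added after their values were seen. So were the 7SK and 7SL relatives under the copy rule. Members and lists were chosen with earlier results of these data known. The 21 alternatives were other scalings, filters, tests (DESeq2 1.42.0, limma 3.58.1 voom) and thresholds, the replicate number as a block, a marker covariate and each library left out. Reads are not counted molecules, so limits from counts cover counting error only. The sequence of 7SL is not reported here.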

Additional observations from a re-analysis of the deposited data

Results flagged for a closer look

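In 18 groups of 4 libraries (9 genes, 2 labels), a library was looked for whose gap to its nearest neighbour was, as a share of the range of its group, above the 95% critical value of Dixon's test, which chance gives in about 1 group in 20. There were 2 such values, both in KO replicate 1. Larp7 had 58.1 CPM in that library, against 51.9, 52.0 and 52.8 in the other libraries labelled KO. Hexim1 had 65.9 CPM there, against 71.8, 72.0 and 72.7. The library was thus the highest of its group for one partner of 7SK and the lowest for the other. It also had the highest mitochondrial share of all 8 libraries, 16.79%, and the lowest level of Rn7s1. Without it the log2 fold changes were -0.18 for Larp7 (edgeR adjusted p = 0.00954) and -0.34 for Hexim1 (1.89e-14).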

How the results depend on the processing

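Rn7sk, Hexim1 and Srp54a kept their direction and their call in all 21 alternatives, Rny3 kept its call in 15 and Larp7 in 8. The count of called members was 5, and it was 3 with DESeq2, 3 with limma voom and 3 at an adjusted p under 0.01, and 3 to 4 when a library was left out, 3 being without KO replicate 2. The count of called genes was 1193, against 785 with DESeq2 and 678 at an adjusted p under 0.01, and the cause of the difference between tools was not tested. Signs that turned were all of values near 0. Leaving out a library gave -0.0163 to 0.115 for Rn7s1, -0.0161 to 0.115 for Rn7s2, -0.0454 to 0.0352 for Parp4 and -0.0312 to 0.0131 for Polr3d, and scaling by library totals gave -0.0067 for Parp4. Replicate numbers are shared between the labels, but same-numbered libraries did not deviate together (correlations of deviations -0.02 to 0.13, 1 of 4 over 0.1). With the replicate number as a block 1249 genes and 5 members were called. Of the libraries, only KO replicate 2 correlated best with its own number (0.13). The highest correlation was between WT replicate 4 and KO replicate 1 (0.25). Vaultrc5 did not pass a filter of 1 CPM in 4 libraries and has no value there. Counts called in lists of related genes were within 1.5 times of the reported count in 188 of their values under the alternatives and moved further in 43. Of these, 13 are the 7SK particle going from 2 to 1 with the loss of the Larp7 call, and for the small nuclear RNAs the count rose from 2 to 4 or 5. Depth limits Rny1 (12 counts in all) and Vaultrc5 (99), whose intervals are wide.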
